A study of Homo sapiens with 2 samples.

Results

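The miR-548 family was examined in small RNA libraries of hCMEC/D3, an established line grown from human brain capillary endothelium that stands in for the blood-brain barrier in culture. The members were all rows of the deposited table whose precursor name begins with hsa-mir-548. They made up 131 of 2363 rows, 70 of 1600 hairpins and 73 of 2042 mature names. Here mir-548 with a small r names a hairpin precursor and miR-548 a mature strand. The study holds 2 libraries of this line, labelled replicate 2 and replicate 8. No treatment, genotype or further group is given in the labels. Whether they came from separate cultures is not given in the sources used here, so the spread between them may be technical. With 1 row kept per mature name the libraries held 2721287 and 2727675 counts, and 3 counts, the limit that a count of 0 allows, corresponded to 1.10 CPM (counts scaled to 1000000 of these totals) in each. The endothelial miRNA miR-126-3p had 297696 and 313837 counts. Among the blood cell markers miR-451a had 43 and 19 counts, while none was listed for miR-142-3p, miR-144-3p or miR-223-3p. Counts of 3 and 1 were listed for miR-124-3p of neurons, 639 and 688 for miR-122-5p of liver, 118 and 85 for miR-200c-3p of epithelium and none for its neighbour miR-141-3p. The muscle miRNAs miR-1 and miR-133a had 8 to 21 counts per library.

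Most miR-548 hairpins derive from MADE1, a short non-autonomous DNA transposon of the mariner type that spread in the primate lineage. A MADE1 copy consists largely of a pair of inverted terminal repeats, so its transcript can fold back on itself into a hairpin that the miRNA enzymes Drosha and Dicer can cut. Because the copies are alike, different loci can give the same mature strand, and a short read often cannot be placed at one of them. A miRNA recognises its targets mainly through its seed, bases 2 to 8 counted from the 5′ end, so a strand that starts 1 base further along has another seed.

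Mature sequences were matched by exact name to RefSeq (miRNA table of build GRCh38.p14), which held 45 of the 73 names with 42 different sequences. They are given 5′ to 3′ with the seed in capitals. The first set shows strands cut from the 5p side. Among them are miR-548k, the name with the most summed counts, and the shorter miR-548av-5p that shares its counts. Also shown is miR-548ar-5p, the sequence with the most copies in the genome.

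miR-548k: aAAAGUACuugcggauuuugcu
miR-548av-5p: aAAAGUACuugcggauuu
miR-548l: aAAAGUAUuugcggguuuuguc
miR-548ap-5p: aAAAGUAAuugcggucuuu
miR-548ar-5p: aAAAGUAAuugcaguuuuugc
miR-548g-5p: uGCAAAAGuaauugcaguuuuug
miR-548q: gCUGGUGCaaaaguaauggcgg

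The second set shows strands from the 3p side, chosen because they differ by a single base or by a shifted start: miR-548o-3p and the shorter miR-548av-3p shared their counts, and the other strands had few.

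miR-548o-3p: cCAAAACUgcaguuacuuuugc
miR-548av-3p: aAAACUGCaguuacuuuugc
miR-548ah-3p: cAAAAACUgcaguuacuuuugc
miR-548am-3p: cAAAAACUgcaguuacuuuugu
miR-548aq-3p: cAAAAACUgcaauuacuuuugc

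Substitutions are written with the base of the first-named strand, the position from its 5′ end and the base of the second. From miR-548o-3p to miR-548ah-3p the only one was C2A, from miR-548ah-3p to miR-548am-3p it was C22U, and from miR-548ah-3p to miR-548aq-3p it was G12A. From miR-548k to miR-548l there were 4, C8U, A15G, C21U and U22C, of which the first lies in the seed. The first 18 bases of miR-548k are the whole of miR-548av-5p, and bases 3 to 22 of both miR-548o-3p and miR-548ah-3p are the whole of miR-548av-3p. miR-548q shares a run of 12 bases with miR-548g-5p, beginning at base 6 of miR-548q and base 1 of miR-548g-5p. The inverted repeat shows between names: an unbroken run of 20 bases of miR-548ar-5p is found within the reverse complement of miR-548aq-3p. Of 65 rows with both a sequence and a located hairpin, all 65 had the mature sequence exactly in that hairpin, the 24 rows named 5p before its midpoint and the 23 named 3p after it.

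The 45 names fell into 27 seeds, of which 21 had a single name. The most common seed, AAAGUAA, was shared by 9 names, and the next, AAAAACU, by 5. Of the detected names with a sequence, miR-548k and miR-548av-5p carried the seed AAAGUAC, miR-548o-3p CAAAACU, miR-548av-3p AAACUGC and miR-548q CUGGUGC, while miR-548ap-5p carried the common AAAGUAA. Of the other detected names, miR-548j and miR-548e, no seed was read. In the AAAGUAA group the highest row was that of miR-548ap-5p on mir-548j, with 47 and 39 counts in replicates 2 and 8. In the AAAAACU group no row exceeded 4 counts in replicate 2 or 7 in replicate 8.

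Most miR-548 hairpins had few counts or none. Of the 70, 19 had no count in either library, 25 had a highest row of 1 to 4 summed counts, 20 of 5 to 19, 3 of 20 to 99 and 3 of 100 or more. At least 1 count was found for 51 hairpins (72.9%), beside 58.8% of all hairpins in the table. A row with at least 10 counts in both libraries, the limit used here for detection, was found for 6 hairpins (8.57%), beside 28.7% of all. These were mir-548k, mir-548o, mir-548o-2, mir-548j, mir-548q and mir-548e. No row reached 100 counts in both libraries, a level that 267 of the 1530 other hairpins reached. The number is sensitive to 1 library: 11 hairpins reached 10 counts in replicate 8 (without replicate 2) and 7 in replicate 2 (without replicate 8), the additional ones being mir-548d-2 and the 4 mir-548i hairpins in the former and mir-548l in the latter.

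**Figure D1:**
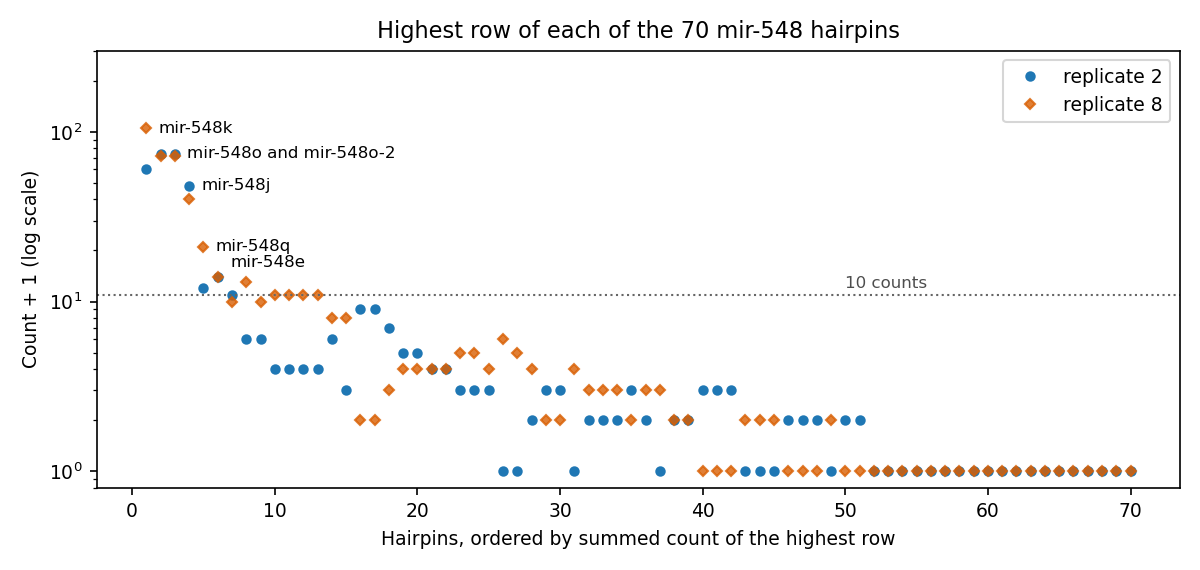
The highest row of each of the 70 mir-548 hairpins is plotted as count + 1 on a log axis, with the hairpins ordered by the sum of both libraries. Circles are replicate 2, diamonds are replicate 8, and the dotted line marks 10 counts: 6 hairpins lie at or above it in both libraries and 19 have no count.

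The many hairpins with a trace count are fewer in evidence than in number, since the same counts were listed in several places. Of the 51 hairpins, 24 had a counted row that stood at those counts on no other hairpin under the same name. For the other 27, each counted row was repeated on another hairpin. A single count in replicate 2 and none in replicate 8 was listed in 12 rows, under the names miR-548g-5p, miR-548x-5p, miR-548aj-5p and miR-548ar-5p on each of mir-548g, mir-548x and mir-548aj-2. The first 3 of these names have the same sequence. In the same way 0 and 2 counts were listed in 12 rows, under miR-548c-5p, miR-548o-5p, miR-548am-5p and miR-548au-5p on each of mir-548am, mir-548c and mir-548o-2. miR-548i had 3 and 10 counts on all 4 of its hairpins and miR-548h-5p had 2 and 0 on all 5. miR-548f did not repeat in this way, with 8 and 1 counts on mir-548f-2 and mir-548f-3, 1 and 1 on mir-548f-1 and mir-548f-4 and none on mir-548f-5.

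In all, 95 of the 131 rows had a count, and they held 30 different pairs of counts. Some pairs of low counts can be alike by coincidence: when rows were joined only where they shared a name or a hairpin, 40 groups remained. With each pair taken once, the counts of the family summed to 274 in replicate 2 and 342 in replicate 8. These are 0.0101% (95% Wilson interval 0.00895 to 0.0113) and 0.0125% (0.0113 to 0.0139) of the totals with 1 row per name, a mean of 0.0113% ± 0.00175 (SD, n = 2). Reads are not counted by molecular identifiers, so these intervals cover counting error only. The sums are approximate, since reads listed on several hairpins at different counts can still be added more than once. miR-548ay-5p, for example, stood at 5 and 7 counts on mir-548ay, 5 and 9 on mir-548d-1 and 5 and 12 on mir-548d-2. Pairs alike by coincidence are in turn added only once. Summing all rows instead gave 692 and 826 counts. Set against the larger totals of all rows, 3167238 and 3195174 counts, this was a share of 0.0239%, beside 0.0113% with each pair taken once. Both kinds of total can hold a read more than once. The 3 highest pairs, described next, held 65.3% (59.5 to 70.7) of the sum over different pairs in replicate 2 and 62.6% (57.3 to 67.5) in replicate 8.

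The highest summed count was that of miR-548k, with 59 in replicate 2 and 104 in replicate 8, or 29.9 ± 11.6 CPM (SD, n = 2). It was highest in replicate 8 but not in replicate 2, where miR-548o-3p had 73. miR-548av-5p was listed with the same counts on the same hairpin. miR-548k ranked 320 among the mature names by summed counts. The annotation (GRCh37) places MIR548K at 70130061 to 70130176 of chromosome 11, on the plus strand and within an intron of PPFIA1, which encodes a liprin scaffold protein. The count was higher in replicate 8, with a log2 ratio over replicate 2 of 0.81 (95% interval 0.34 to 1.30, two-sided exact binomial test, adjusted p = 0.0023 by Benjamini-Hochberg over 695 names). That test sets 2 libraries against each other under counting error alone and says nothing of a condition.

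Next by summed counts came miR-548o-3p, with 73 counts in replicate 2 and 71 in replicate 8, or 26.4 ± 0.563 CPM (SD, n = 2). The same pair stood in 4 rows, under miR-548o-3p and miR-548av-3p on both mir-548o and mir-548o-2. These names start 2 bases apart and so have different seeds, and counts equal on both do not say which 5′ end the reads had. MIR548O lies on chromosome 7 at 102046189 to 102046302 (minus strand), with no gene on its own strand and opposite an intron of PRKRIP1. MIR548O2 spans 37145206 to 37145275 of chromosome 20, with RALGAPB as the host of the intron around it on the plus strand. RALGAPB encodes a subunit of the Ral GTPase-activating complex.

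miR-548j had 47 counts in replicate 2 and 39 in replicate 8, or 15.8 ± 2.10 CPM (SD, n = 2), and miR-548ap-5p stood at the same counts on its hairpin. MIR548J lies on chromosome 22 at 26951178 to 26951289 (minus strand), in an intron of TPST2, which encodes a tyrosylprotein sulfotransferase. Beyond these the level dropped. miR-548q had 11 and 20 counts, or 5.69 ± 2.33 CPM, from MIR548Q on chromosome 10 at 12767253 to 12767352 (minus strand), opposite an intron of CAMK1D. miR-548e had 13 counts in each library, or 4.77 ± 0.00791 CPM, an SD far below the counting error of 13 reads. MIR548E spans 112748684 to 112748771 of the same chromosome on its plus strand, inside an intron of SHOC2, which encodes a scaffold of the RAS pathway.

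**Figure D2:**
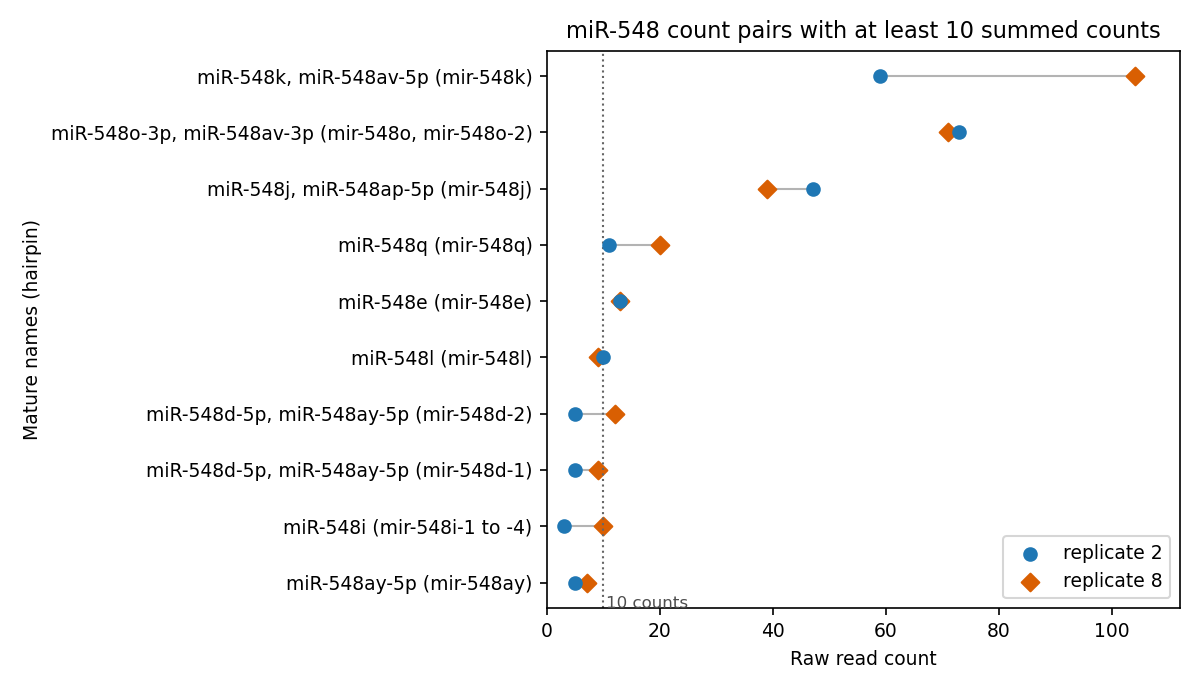
Raw counts are plotted for the 10 miR-548 count pairs with at least 10 summed counts, with the names that share each pair and their hairpins in parentheses. Circles are replicate 2 and diamonds replicate 8; the miR-548k pair has the widest gap, 59 against 104, and the miR-548o-3p pair lies at 73 and 71.

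Of the 12 miR-548 names with at least 10 summed counts, 2 differed between the libraries, miR-548k and miR-548av-5p, which are 1 pair of counts. In the same test 34.2% of all 695 names passed, and 10.8% of the 695 passed and were higher in replicate 8. That background direction depends on the scaling: 31.5% of the 238 called names were higher in replicate 8 with library totals, 48.9% of 227 with TMM totals and 49.6% of 224 with DESeq2 size factors. The median log2 ratio over all 695 names was -0.11, -0.02 and -0.01 in turn, and that of miR-548k 0.81, 0.91 and 0.91. The 12 names held 8 different count pairs, of which 4 were higher in replicate 8. For the miR-548o-3p pair the log2 ratio was -0.04 (95% interval -0.54 to 0.45) and for the miR-548j pair -0.27 (-0.92 to 0.37). For miR-548q it was 0.83 (-0.27 to 2.07, exact binomial adjusted p = 0.29), as large as for miR-548k but on fewer counts. The largest ratios stood on still fewer counts and were not called. They were 1.58 (-0.22 to 4.23) for miR-548i and 1.18 (-0.35 to 3.12) for the pair of miR-548d-5p and miR-548ay-5p on mir-548d-2. For miR-548e the interval ran from -1.23 to 1.22 and for miR-548l from -1.63 to 1.30. At 9 to 13 counts per library, differences within these bounds are thus not excluded.

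Names often shared their counts. Of the 20 rows that reached 10 summed counts, 12 had the same pair of counts as a row of another miR-548 name and 3 more matched only rows outside the family. Together these are 15 of 20, beside 18.9% of all such rows in the table, where low counts can also be alike by coincidence. Of the 131 rows, 38 (29.0%) listed a mature name on a hairpin of another name, beside 5.12% of all rows. Among names with a sequence there were 7 pairs in which one lay within the other or equalled it. All 7 shared a hairpin and had equal counts on every hairpin they shared. In 4 of the 7 the sequences were identical, so equal counts were fixed in advance. Those pairs had either no count or the same 1 and 0 counts. In 2 of the 7 pairs the seeds differed, both with miR-548av-3p.

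The value of a name depended on the hairpin it was listed with. For 20 names a row existed both on the hairpin of the same name and on another. The count was higher on the other hairpin for 8, higher on their own for 1, and equal for 11, among them miR-548g-3p with no count on either. miR-548av-5p had 0 and 1 counts on mir-548av and 59 and 104 on mir-548k. miR-548av-3p had 0 and 3 on mir-548av, 4 and 3 on mir-548ah and mir-548p, and 73 and 71 on mir-548o and mir-548o-2. miR-548ap-5p had 2 and 3 on mir-548ap and 47 and 39 on mir-548j. Taking the highest row of each name makes 8 names detected, but these hold 5 different count pairs, and 3 of the names (miR-548av-5p, miR-548av-3p and miR-548ap-5p) had at most 3 counts in either library on the hairpin they are named for.

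**Figure D3:**
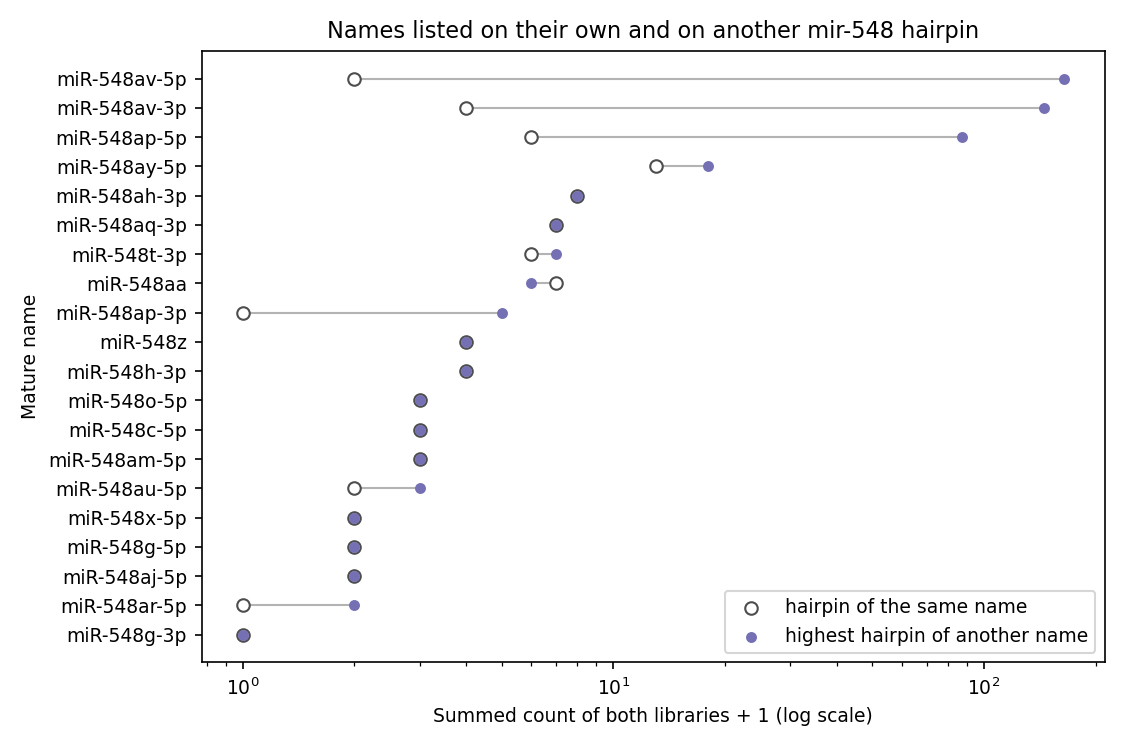
For the 20 names listed on a hairpin of the same name and on another mir-548 hairpin, the summed count + 1 on a log axis is shown for the former (open circles) and for the highest of the latter (filled circles). miR-548av-5p, miR-548av-3p and miR-548ap-5p show the widest gaps; for 11 names the circles coincide.

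The names separated by a single base were compared by their counts, without a test. mir-548ah and mir-548p both listed miR-548ah-3p at 4 and 3 counts, against 73 and 71 for miR-548o-3p, from which it differs by C2A alone. miR-548am-3p, which differs from miR-548ah-3p by C22U, had 2 and 7 counts on mir-548am, and miR-548aq-3p, with G12A, had 2 and 4 on mir-548aq and mir-548h-3. At such counts these low names cannot be ordered. miR-548p itself, whose sequence shares 19 bases with miR-548ah-3p but begins 3 bases earlier, had the same 4 and 3 counts on mir-548p. miR-548l had 10 and 9 counts and miR-548w 6 and 2.

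The remaining names had traces. miR-548aa and miR-548t-3p had 3 and 3 counts on mir-548aa-1 and mir-548aa-2 and 2 and 3 on mir-548t. miR-548ap-3p had 2 and 2 on the same 3 hairpins and none on mir-548ap. Like miR-548ar-5p, it was counted on hairpins of another name alone. miR-548ab, which differs from miR-548k by C8A and C12U, had 0 and 4 counts. miR-548u had 1 and 3, miR-548n and miR-548az-5p 1 and 2, and miR-548al, miR-548s and miR-548as-5p 2 and 1. miR-548h-3p and miR-548z both had 1 and 2 on mir-548h-4 and on mir-548z. Single counts stood with miR-548a-3p on its 3 hairpins, miR-548d-3p, miR-548ac and miR-548at-5p. No count was listed for 28 of the 73 names. The 19 hairpins without a count were mir-548ad, mir-548ae-1, mir-548ae-2, mir-548ag-1, mir-548ag-2, mir-548ai, mir-548aj-1, mir-548ak, mir-548an, mir-548ao, mir-548ar, mir-548aw, mir-548ax, mir-548b, mir-548f-5, mir-548m, mir-548v, mir-548x-2 and mir-548y. A count of 0 allows up to 1.10 CPM in either library.

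How often each mature sequence occurs in the genome was counted as exact matches on both strands of the assembled GRCh37 chromosomes. The 45 names listed on mir-548 hairpins, miR-570-5p among them, had a median of 2 sites and up to 584, and 11 (24.4%) had 10 or more. Of 1671 other names with a sequence, the median was 1 site and 14 (0.838%) had 10 or more. A single site was found for 42.2% of the miR-548 names and 82.6% of the others. The median GC content of the sequences was 35% against 50%. The most frequent were miR-548ar-5p with 584 sites, miR-548aq-3p with 572, and miR-548g-5p, miR-548x-5p and miR-548aj-5p with 550 each. The names with 550 sites are the same sequence, which the share of names counts under each name. Then followed miR-548av-3p with 85, miR-548ah-3p with 59, miR-548as-5p and miR-548b-5p with 26 each and miR-548ap-5p with 18.

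Among the names with a sequence, the highest counts on the hairpin of the same name belonged to sequences with few sites. Site numbers were not counted for miR-548j, miR-548e, miR-548d-5p and miR-548i, which are among the names with the most counts. miR-548k and miR-548l each had 1 exact site, and miR-548o-3p and miR-548q had 2. On the hairpin of the same name the highest summed count was 163 among the 19 names with 1 site, 144 among 14 names with 2 to 9 sites, 7 among 6 names with 10 to 99 sites and 6 among 5 names with 100 or more. The rows with many counts on a hairpin of another name did not follow this, since miR-548av-3p with 85 sites had 73 and 71 counts on mir-548o and miR-548ap-5p with 18 sites had 47 and 39 on mir-548j. The decline on hairpins of the same name was read in maxima alone, over groups of falling size. With the highest row of each name on any hairpin, a different measure, the maxima were 163, 163, 144 and 6 in the same order. The median summed counts by that measure were 1, 0, 5 and 1. No count was listed for 8 of 19, 9 of 15, 2 of 6 and 0 of 5 names in turn. Among the last 5 names, miR-548g-5p, miR-548x-5p, miR-548aj-5p and miR-548ar-5p repeat the same 1 and 0 counts. Since names are not separate measurements, no trend of typical counts with the number of sites can be read. Few sites did not mean many counts. How the authors treated reads that match many places is not given in the sources used here, and its part in this pattern was not tested.

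**Figure D4:**
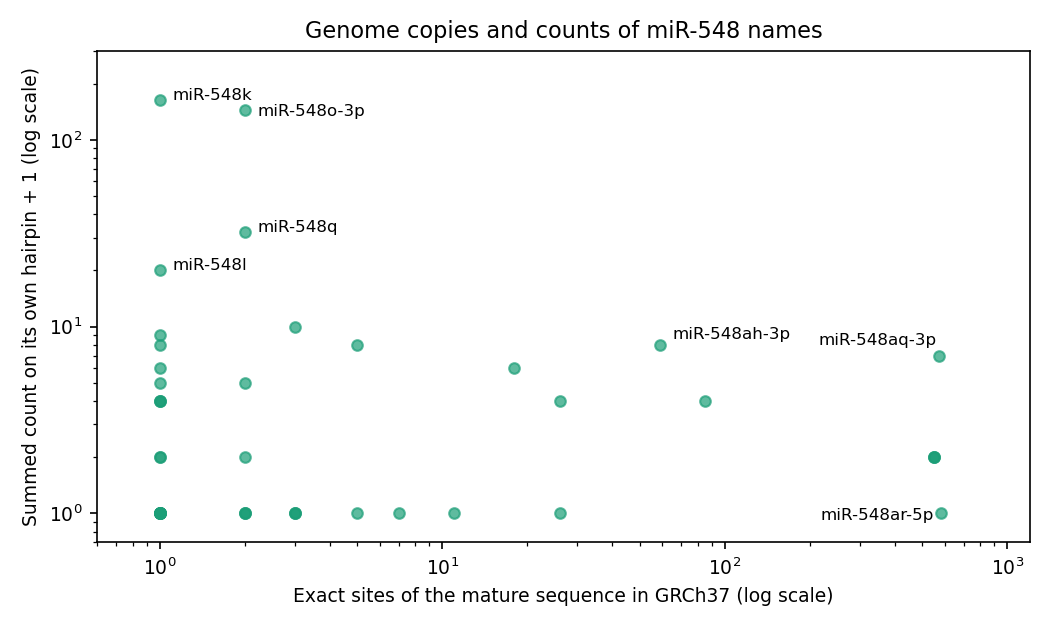
Each point is 1 of 44 miR-548 names with a RefSeq sequence and a row on a hairpin of the same name, with exact sites in GRCh37 on the horizontal log axis and summed count + 1 on that hairpin on the vertical log axis. miR-548k (1 site) and miR-548o-3p (2 sites) are highest, and the names with 550 sites or more have at most 6 counts.

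By position the family is scattered. GENCODE located 64 of the 70 hairpins on GRCh37, on 22 different chromosomes with 7 on the X chromosome. None overlapped an exon on its own strand. There were 38 (59.4%) in an intron on the same strand, 33 of them in a protein-coding gene, a further 11 were only opposite another gene and 15 were in no gene. Of the 38 in a same-strand intron 4 were detected at 10 counts in both libraries and 28 had any count. Of the 26 others 2 were detected and 17 had any count. The same 73 and 71 counts stood on mir-548o-2, in an intron, and on mir-548o, outside one, so these numbers do not separate the contexts. The intronic hairpins with no or few counts included mir-548f-2 in ERBB4 with 8 and 1 counts, mir-548f-5 in DMD with none and mir-548ac in CD58 with 1 and 0. Expression of the host genes is not measured by these libraries.

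Arm balance could be read for few hairpins. Both a 5p and a 3p name were listed for 24 of the 70, and 639 of all 1600. Of the 24, 9 had counts on both arms, 9 on the 5p arm alone, 3 on the 3p arm alone and 3 on neither. These hairpins are not separate observations, and no lean to an arm can be read from the numbers. On the 5p arm mir-548aj-2, mir-548g and mir-548x listed the same 1 and 0 counts. mir-548c repeated the 0 and 2 of mir-548am and mir-548o-2. The 3p counts of mir-548a-3, mir-548ah and mir-548aq also stood on other hairpins. In mir-548o-2 alone did the arms together reach 20 counts per library. Its 3p arm had 73 and 71 counts and its 5p arm 0 and 2, so that the 5p arm held 0% (95% Wilson interval 0 to 5.0) of the former library's counts and 2.74% (0.755 to 9.45) of the latter's. Fisher's exact test, two-sided, gave no call for the change of the 5p share between the libraries (adjusted p = 0.87 over 253 hairpins). Over those 253 hairpins 63.6% had one arm above 90% in both libraries and 17.0% differed between the libraries in this test. The counts of both arms were also listed elsewhere, the 2 on the 5p arm on mir-548am and mir-548c and the 73 and 71 on the 3p arm on mir-548o, so the share need not be that of mir-548o-2 alone.

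In mir-548ay both arms had counts: the 5p arm 5 and 7, the 3p arm 6 and 1. The 5p arm thus held 45.5% (Wilson interval 21.3 to 72.0) of the hairpin's counts in replicate 2 against 87.5% (52.9 to 97.8) in replicate 8, and these intervals overlap. The name miR-548ay-5p was also listed on mir-548d-1 with 5 and 9 counts and on mir-548d-2 with 5 and 12, while miR-548ay-3p was listed nowhere else. On mir-548d-1 and mir-548d-2 the 3p arm had 0 and 1 counts. mir-548t had 0 and 5 counts on its 5p arm and 2 and 3 on its 3p arm, again too few to tell the arms apart. mir-548am, mir-548h-3, mir-548h-4 and mir-548av had more counts on the 3p than on the 5p arm in sum, with at most 9 counts on either.

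**Figure D5:**
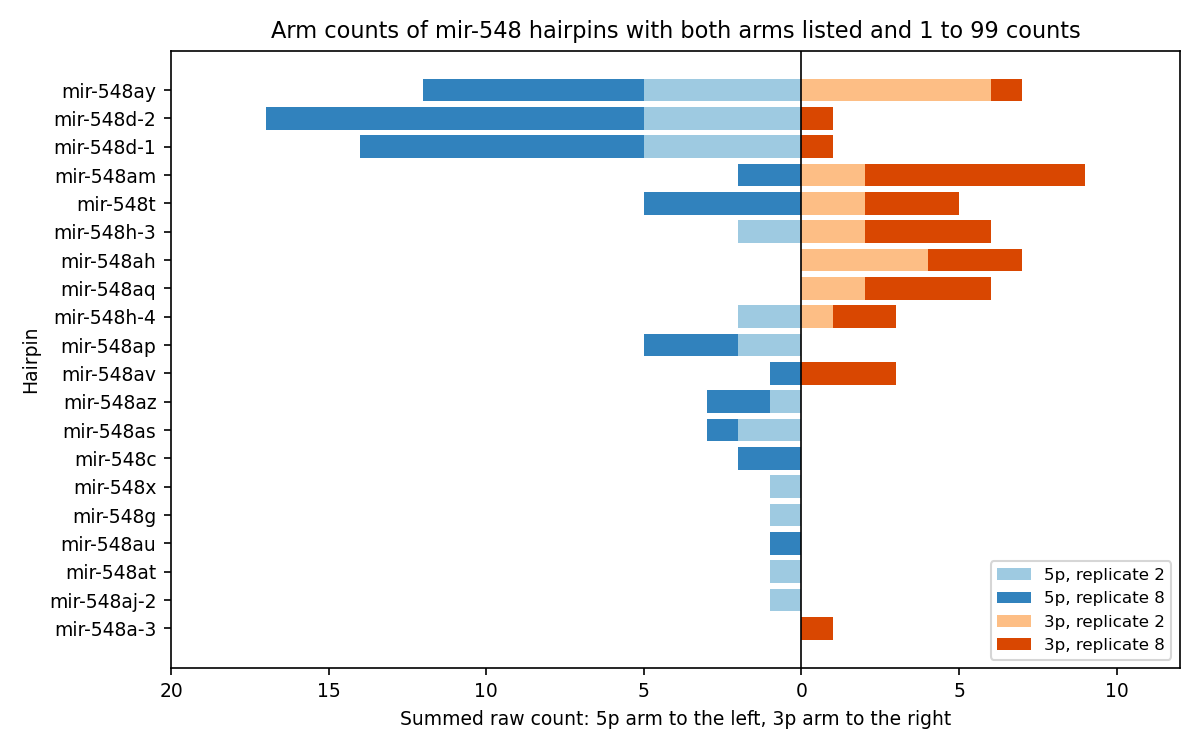
Summed raw counts on the 5p arm (left, blue) and the 3p arm (right, orange) are shown for the 20 mir-548 hairpins with both arms listed and 1 to 99 counts, light for replicate 2 and dark for replicate 8. mir-548o-2, left out for scale, had 2 counts on the 5p and 144 on the 3p arm; mir-548ay is split with 12 and 7, and most of the other bars rest on under 10 counts.

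For 10 names both arms were in RefSeq, and the longest run of the 5p strand found unbroken in the reverse complement of the 3p strand was 5 to 19 bases, with a median of 9.5. It was 19 for miR-548aj and 18 for miR-548x, whose 5p strand has 550 sites, and 5 for miR-548b.

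Hairpins related to miR-548 but named otherwise were also near 0. miR-570-3p had 2 and 0 counts, miR-579 1 and 0 and miR-603 none. miR-570-5p, whose sequence equals that of miR-548ai, had no count on either hairpin. Among miRNAs from other transposons the levels differed widely. All 5 hairpins of the LINE2 list (mir-28, mir-151a, mir-151b, mir-708 and mir-95) were detected, with miR-151a-3p the highest at 74740 and 70542 counts, whereas none of the 11 mir-1302 hairpins had a count. Of a further 4 hairpins, mir-340 and mir-374b were detected, miR-374b-5p with 563 and 600 counts, and mir-544a and mir-544b had none. The highest miR-548 row was thus below every hairpin of the LINE2 list in both libraries.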

How the data were processed

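Per the file headers the deposited table holds raw counts and RPM (reads scaled to library size) for each pair of mature and precursor name in 2 libraries. The submitters' processing notes name CASAVA 1.9, FastQC, cutadapt, Bowtie 0.12.7 and hg19, without their roles. The rule for reads that match several hairpins is not given in the sources used here, and such reads can stand in several rows. CPM were computed on the row with the highest mean per mature name, and the deposited RPM of the authors served as an alternative. The family was summed over different pairs of counts. Names described one by one had at least 20 summed counts, or belonged to hairpins with at least 5 counts on each arm; others are given as examples chosen after their values were seen. The members and lists were chosen with earlier results of these data known. With 1 group no test between conditions exists. Libraries were compared by a two-sided exact binomial test over names with at least 10 summed counts, and arms by Fisher's exact test where the arms of a hairpin together reached 20 counts per library, both with Benjamini-Hochberg adjustment at 0.05 and tested on simulated data. Log2 ratios used counts plus 0.5. Positions came from GENCODE on GRCh37, the build that hg19 names, and mature sequences from RefSeq by exact name. Software was Python 3.11.15, scipy 1.17.1, edgeR 4.0.16 (TMM) and DESeq2 1.42.0 (size factors).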

Additional observations from a re-analysis of the deposited data

How the results depend on the processing

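The family share of 0.0113% rose to 0.0239% with all rows summed and set against the totals of all rows. It rose to 0.0238% with the deposited RPM and to 0.0189% with 1 row per name. Over rows with at least 10 counts in both libraries it fell to 0.00826%. These shifts follow from how often a count is repeated or left out and from the totals used. The share ranged from 0.0101% to 0.0125% without one library. It was 0.0118% with pairs joined only through a shared name or hairpin, a setting chosen after seeing the data. Detected hairpins numbered 36, 10 and 0 with limits of 1, 5 and 100 counts, and 7 to 11 without one library. The 30 count pairs became 10 among rows with at least 10 summed counts, and 13 to 14 without one library, where only 1 count remains to tell pairs apart. The 2 names that differed between the libraries, miR-548k and miR-548av-5p, were the ones called with TMM totals, with DESeq2 size factors, with either other count filter and with every row tested (adjusted p for miR-548k from 0.00041 to 0.0038, exact binomial test). The arm results rest on 1 hairpin under every setting tried. No paired analysis was possible because there was 1 group. Depth limits most members: names under 10 summed counts were left out of the comparison of the libraries. Without that filter no further miR-548 name was called, which says little, since so few counts can seldom pass the adjusted test.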
